A study of Caenorhabditis elegans with 4 samples.

Results

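Argonautes are the proteins that hold a small RNA and use it to find matching transcripts. The 10 Argonaute genes described here, alg-1, alg-2, alg-3, alg-4, ergo-1, csr-1, prg-1, hrde-1, wago-1 and rde-1, were taken from a named list and found by WormBase gene identifier among the 20535 genes of each file. All 10 were present. They were followed in whole young adult Caenorhabditis elegans of 2 strains, with 2 RNA-seq libraries per strain that the labels name as biological replicates. The mutant strain, VL1080, carries mccc-1(ww4) on chromosome IV together with the integrated reporter wwIs24, which the labels write as acdh-1p::GFP with unc-119(ed3). The control strain, VL749, carries wwIs24 without the mccc-1 allele, so both strains hold the same reporter. The product of mccc-1 is part of methylcrotonyl-CoA carboxylase, an enzyme of leucine breakdown, and what ww4 does to the gene is not in the labels. Each strain is a single line. At least 200 animals per library, synchronized by 20 h of larval arrest and kept at 20 °C on the bacterium Comamonas aquatica DA1877, were taken at 70 h after egg hatching.

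In this worm, small RNA pathways divide by tissue. ALG-3 and ALG-4 act in the spermatogenic germline, where they bind the class of small RNAs called 26G-RNAs and act on transcripts of sperm development, while ERGO-1 binds 26G-RNAs of oocytes and embryos. RDE-1 starts the response to introduced double-stranded RNA, and ALG-1 and ALG-2 carry microRNAs, mostly in the soma. In the germline PRG-1, a Piwi protein, binds piRNAs, WAGO-1 and the nuclear HRDE-1 bind secondary 22G-RNAs that silence genes, and CSR-1 binds 22G-RNAs against genes the germline expresses. A hermaphrodite makes its sperm first and then turns to oocytes.

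The sperm Argonaute genes alg-3 and alg-4 fell in the mutant, 3.30-fold and 3.82-fold by the ratio of mean levels. None of the other 8 Argonaute genes passed the test in either direction; their mean levels in the mutant ranged from 0.834 times the control level for ergo-1 to 1.42 times for hrde-1. Levels are in FPKM, fragments mapped to a gene relative to its transcript length and to the size of the library, and tests are on log2(FPKM + 1) with limma, adjusted over 13091 genes, with a threshold of 0.05. Over all tested genes 8.36% were called, 7.30% lower and 1.06% higher, so 2 of 10 called lower is a larger share than the background and 0 of 10 called higher is near it. The 10 genes were chosen with earlier results of these data known, and alg-3 and alg-4 are close relatives. These shares are therefore a description only. At an unadjusted p under 0.05, limma counted 3 of the 10, with hrde-1 as the third, against 21.6% of all tested genes. The same 21.6% is the share to set beside the unadjusted counts of the gene lists below. Every one of the 10 genes had at least 1 FPKM in all 4 libraries, so none entered the test through one strain alone.

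Across the series, FPKM values summed to between 741399 and 786436 per library. Pearson's r of log2 values over the tested genes was 0.981 between the mutant libraries, 0.978 between the control libraries and 0.930 to 0.965 between strains. mccc-1 itself had 100.43 and 100.33 FPKM in the mutant, against 104.19 and 105.26 FPKM in the control (log2 fold change -0.06, SE 0.11, limma adjusted p = 0.821), which leaves the genotype labels unchecked. The depth of the libraries was not among the labels. From the steps between the lowest values, 1 FPKM of a transcript of 1 kb was worth about 11.4 to 11.8 fragments in every library. On that scale alg-3, with a longest transcript of 3268 nt, rested on about 105 and 192 fragments in the mutant and about 439 and 560 in the control.

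alg-3 (WBGene00011910) lies on chromosome IV, 11704246 to 11708264, forward strand, in the WBcel235 annotation, and is protein-coding with up to 12 exons; the sources used here do not name the authors' own build. It had 2.84 and 5.04 FPKM in the mutant libraries, against 11.42 and 14.62 FPKM in the control libraries. Both mutant values lie below both control values, and mutant replicate 1 is the lowest of the 4. The means were 3.94 ± 1.56 FPKM in the mutant and 13.02 ± 2.26 FPKM in the control (SD, n = 2 each). The log2 fold change was -1.53 (SE 0.29, 95% interval -2.22 to -0.85, limma adjusted p = 0.0262), and 485 of the 13091 tested genes had a more negative one.

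alg-4 (WBGene00006449), the close relative that acts redundantly with alg-3, lies on chromosome III, 9887209 to 9891424, reverse strand, and likewise has up to 12 exons. It had 3.08 and 4.61 FPKM in the mutant libraries, against 12.23 and 17.12 FPKM in the control libraries. Again the strains do not overlap, and again replicate 1 is the lower library of each strain. The means were 3.85 ± 1.08 FPKM in the mutant and 14.7 ± 3.46 FPKM in the control (SD, n = 2 each). The log2 fold change was -1.69 (SE 0.27, 95% interval -2.34 to -1.05, limma adjusted p = 0.0163). Both calls were lost without control replicate 2 (adjusted p = 0.0896 for alg-3 and 0.0540 for alg-4), without mutant replicate 1 (0.0994 and 0.0664) and with no filter on low values (0.136 and 0.117), and that of alg-3 also after quantile normalization (0.0514). Over 11 alternatives the adjusted p ran from 0.000452 to 0.136 for alg-3 and from 0.000172 to 0.117 for alg-4, and all 11 kept both log2 fold changes negative.

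**Figure D1:**
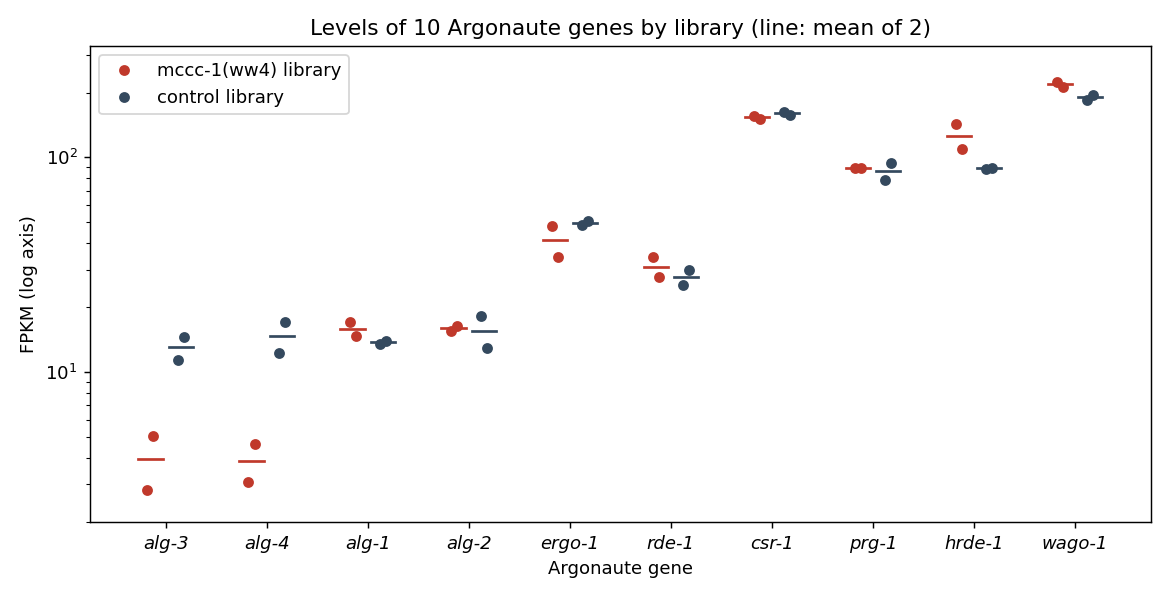
FPKM on a log axis of the 10 Argonaute genes in each library, with mccc-1(ww4) left of control for each gene; points are the 2 libraries of a strain and lines their mean. alg-3 and alg-4 sit between 2.84 and 5.04 FPKM in the mutant and between 11.42 and 17.12 FPKM in the control, and the strain means of the other 8 genes differ by at most 1.42 times, for hrde-1.

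The pair moved nearly in step. The ratio of alg-3 to alg-4 was 0.922 and 1.09 in the mutant libraries and 0.934 and 0.854 in the control libraries, so neither gene was far above the other in any library. Because reads of related genes are shared out by a model, the sum of the pair is less affected by how they were shared. The sum was 5.92 and 9.65 FPKM in the mutant, against 23.65 and 31.74 FPKM in the control, 3.56-fold lower by the means. As a share of the summed level of the 10 genes, the pair held 0.805% and 1.45% in the mutant libraries and 3.68% and 4.69% in the control libraries.

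The fall of alg-3 and alg-4 stood beside lower sperm markers in the same libraries, and the part of sperm content in it was not tested. All 28 tested major sperm protein genes, which encode the cytoskeletal protein of nematode sperm, were called lower, against 7.30% of all genes tested. Their median log2 fold change was -1.69, against 0.05 over all genes tested. Reads of related genes are shared out by a model, so these are not 28 separate observations and the value of each gene is uncertain. msp-64, msp-3 and msp-142 had log2 fold changes of -2.21, -1.94 and -1.89. The summed level of the 30 matched genes was 2819 and 4312 FPKM in the mutant and 11034 and 10562 FPKM in the control; msp-74 is listed at 0 in both mutant libraries. Of 22 tested genes of the other sperm list, 12 were called lower, 10 did not pass and none was higher (median -1.16). Of the 22, fer-1, peel-1, spe-9 and spe-38 entered the test through the control libraries alone and so had to differ; without these 4, 10 of 18 were called lower (median -1.30). By log2 fold change the list's largest falls were those of ssp-19, of the small sperm-specific family (-2.06), and the sperm phosphatase gene gsp-3 (-2.01). Next was peel-1, which encodes a toxin that sperm deliver (-1.90). By the ratio of means the order differed, with ssp-19 4.71-fold, gsp-3 4.16-fold and peel-1 8.29-fold lower. Larger ratios were those of spe-38 (16.1-fold) and the untested spe-42 (10.1-fold), at levels near the filter. The count of 12 was 7 without control replicate 2 and also without mutant replicate 1, and with no filter on low values no gene of either sperm list was called. The list's 23 matched genes summed to 199.89 and 268.29 FPKM in the mutant and to 587.31 and 643.96 FPKM in the control, and spe-38 was the only one listed at 0 in any library. Whole animals were sequenced, so fewer sperm or spermatocytes and less of these RNAs per cell cannot be told apart. All libraries were taken at the same time, 70 h after egg hatching, so any difference in the pace of development between the strains cannot be told apart from genotype.

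The genes of the sperm list given next varied among themselves and were named after their values were seen. No group of early-acting genes was defined beforehand. spe-44, a transcription factor gene of spermatogenesis, had 9.81 and 9.25 FPKM in the mutant and 10.44 and 9.67 FPKM in the control. fog-1, which directs germ cells to the sperm fate, had 15.63 and 13.54 FPKM in the mutant and 12 and 12.41 FPKM in the control. fog-3, which acts with fog-1 in that decision, had 0.53 and 1.49 FPKM in the mutant and 2.23 and 2.42 FPKM in the control, where both mutant libraries are the lower ones (log2 fold change -0.77). None of these genes passed the test (limma adjusted p = 0.883, 0.527 and 0.219), and whether their changes differ from those of alg-3 and alg-4 was not tested. Elsewhere in the list, cpb-1 had a log2 fold change of -0.115, while spe-6 was called lower (-1.07, limma adjusted p = 0.0363).

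Set against the sperm markers of the same library, the difference in the sperm Argonautes was smaller. Per 1000 FPKM of major sperm protein transcripts, alg-3 and alg-4 together had 2.10 and 2.24 FPKM in the mutant and 2.14 and 3.01 FPKM in the control, and these ranges overlap; the ratio of the means was 0.843. Per 100 FPKM of the other sperm list they had 2.96 and 3.60 FPKM in the mutant and 4.03 and 4.93 FPKM in the control, which do not overlap; the ratio of the means was 0.732. Per 1000 FPKM of 18 germline marker genes they had 3.38 and 5.73 FPKM in the mutant and 14.5 and 19.4 FPKM in the control, a ratio of the means of 0.269. These ratios were not tested. The other sperm list includes cpb-1, fog-1, spe-44 and try-5, named after their values were seen. Their log2 fold changes were -0.115, 0.236, -0.0698 and -0.0109, against a median of -1.16 over that list. These genes changed less, so they held a larger part of that list's sum in the mutant, which lowers the ratio of 0.732. The ratio without them was not computed.

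**Figure D2:**
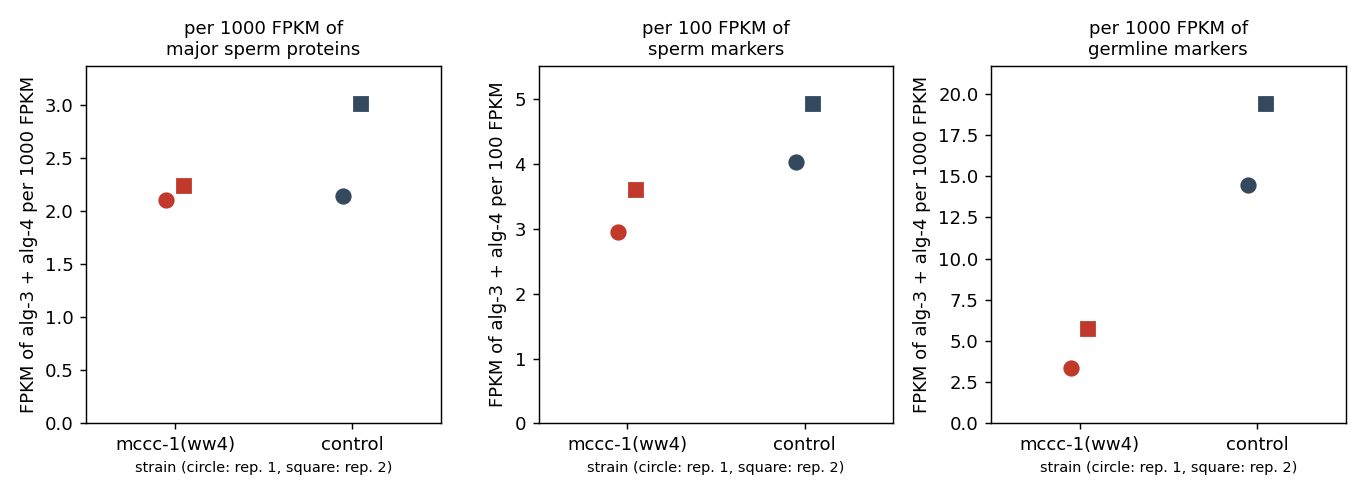
Summed FPKM of alg-3 and alg-4 per 1000 FPKM of major sperm protein genes (left), per 100 FPKM of the other sperm list (middle) and per 1000 FPKM of germline markers (right), with mccc-1(ww4) left of control; circles are replicate 1 and squares replicate 2. The strains overlap in the left panel and lie apart in the other panels.

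**Figure D3:**
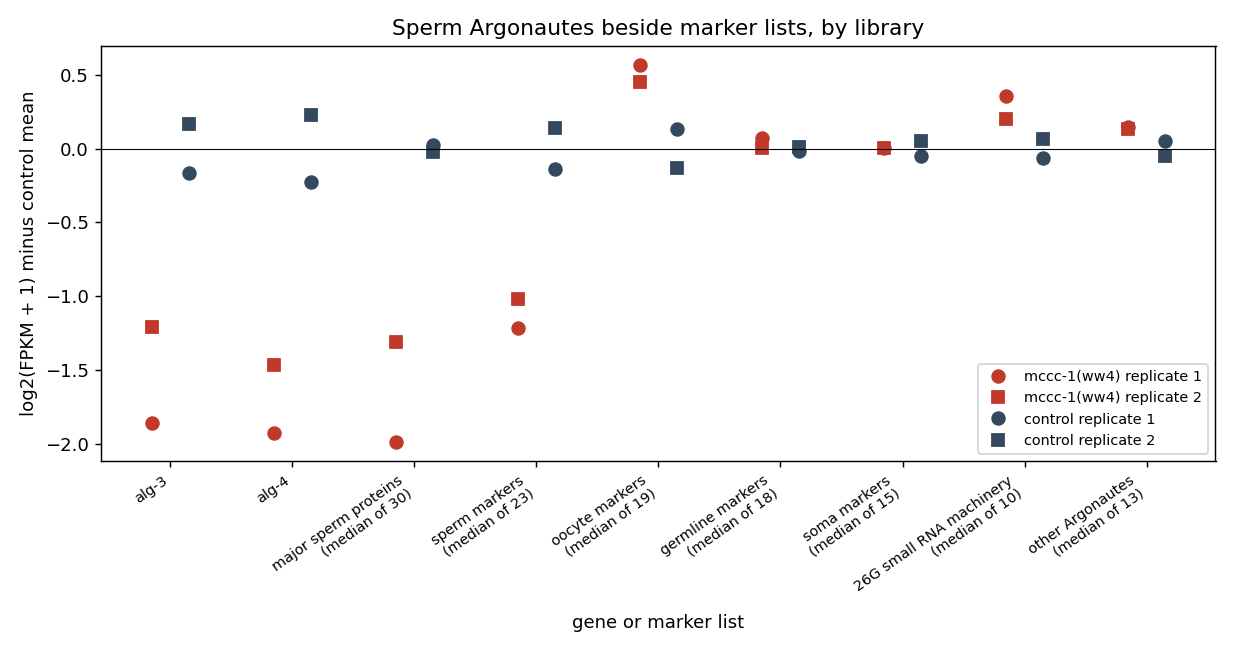
log2(FPKM + 1) of alg-3 and alg-4, and the median over each marker list, as the difference from the mean of the control libraries; mccc-1(ww4) libraries are left of control libraries. The mutant libraries lie between -1.92 and -1.21 for alg-3 and alg-4 and between -1.99 and -1.02 for both sperm lists, and above the control libraries for oocyte markers.

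ergo-1 (WBGene00019971; chromosome V, 1008803 to 1018352, forward strand), the 26G-RNA Argonaute of oocytes and embryos, did not pass. It had 48.12 and 34.37 FPKM in the mutant libraries, against 48.63 and 50.33 FPKM in the control libraries. Mutant replicate 2 was the low library, and mutant replicate 1 lay within 1 FPKM of control replicate 1. The log2 fold change was -0.28 (95% interval -0.71 to 0.15, limma adjusted p = 0.450). Over all genes tested, 7278 of 13091 had positive log2 fold changes. In the same libraries all 19 oocyte and eggshell markers had positive log2 fold changes, with a median of 0.50. Of these, 2 were called higher, spn-4 and mex-6, which encode RNA-binding proteins loaded into the egg (0.67 and 0.59; limma adjusted p = 0.0403 and 0.0430), a count that was 0 with no filter, after median-of-ratios scaling and without control replicate 2 or mutant replicate 1, 1 without mutant replicate 2, with a pseudocount of 0.1 and after quantile normalization, and 6 without control replicate 1. In the main fit 1.06% of all genes tested were called higher. The oocyte list summed to 6312 and 5940 FPKM in the mutant and to 4725 and 3734 FPKM in the control.

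The machinery that makes 26G-RNAs is shared by ERGO-1, ALG-3 and ALG-4, and includes the polymerase RRF-3, the nuclease Dicer and its partners. By limma none of its 10 tested genes was called in either direction, with 2 at an unadjusted p under 0.05; their log2 fold changes ran from -0.10 to 0.53, with a median of 0.28. rde-4, which encodes the RNA-binding partner of Dicer, had the largest, with 86.24 and 80.36 FPKM in the mutant and 52.35 and 62.78 FPKM in the control (0.53, limma adjusted p = 0.0715). rrf-3 had 16.20 and 12.76 FPKM in the mutant and 10.76 and 11.88 FPKM in the control. In 7 of the 10 genes both mutant libraries lay above both control libraries, against 28.9% of all tested genes.

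rde-1 (WBGene00004323; chromosome V, 9987916 to 9991642, reverse strand), the Argonaute of introduced double-stranded RNA, had 34.24 and 27.75 FPKM in the mutant, against 25.42 and 29.83 FPKM in the control. The strains overlap. The log2 fold change was 0.16 (95% interval -0.25 to 0.56, limma adjusted p = 0.667).

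The microRNA Argonaute genes had levels similar to each other. alg-1 (WBGene00000105; chromosome X, 13949110 to 13956261, forward strand) had 17.04 and 14.70 FPKM in the mutant, against 13.57 and 13.93 FPKM in the control. alg-2 (WBGene00000106; chromosome II, 873212 to 879885, forward strand) had 15.62 and 16.48 FPKM in the mutant, against 18.22 and 12.89 FPKM in the control. For alg-1 the mutant libraries lay above the control libraries by less than 1 FPKM at the nearest point, and for alg-2 the strains overlap. The log2 fold changes were 0.19 (95% interval -0.23 to 0.61, limma adjusted p = 0.605) and 0.06 (-0.44 to 0.56, adjusted p = 0.906), so the estimated changes of alg-3 and alg-4 lie outside both intervals. The summed level of alg-1 and alg-2, which also share reads as close relatives, was 32.7 and 31.2 FPKM in the mutant and 31.8 and 26.8 FPKM in the control. Of 8 microRNA machinery genes limma called none (1 at an unadjusted p under 0.05; median 0.07); drsh-1, the Drosha gene, had the largest log2 fold change, 0.51 (limma adjusted p = 0.233). Nor did limma call any of 15 soma markers (1 at an unadjusted p under 0.05, median -0.10). The intestinal GATA factor gene elt-2 had the largest log2 fold change, 0.91 (limma adjusted p = 0.0967). It passed as higher without control replicate 1, as did another soma marker, and with the replicate number as a block (0.0303).

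In the control, alg-3 and alg-4 stood at the level of the microRNA Argonautes. There alg-2, alg-4, alg-1 and alg-3 averaged 15.6 ± 3.77, 14.7 ± 3.46, 13.75 ± 0.255 and 13.02 ± 2.26 FPKM (SD, n = 2 each), and each overlaps the next. In the mutant, alg-2 and alg-1 averaged 16.1 ± 0.608 and 15.9 ± 1.65 FPKM and overlap, while alg-3 and alg-4 stood below them at 3.94 ± 1.56 and 3.85 ± 1.08 FPKM and overlap only each other. The order above these was the same in both strains, with wago-1 at the top, then csr-1, hrde-1, prg-1, ergo-1 and rde-1; hrde-1 and prg-1 overlap in the control and not in the mutant.

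The germline Argonautes were the most abundant of the 10. csr-1 (WBGene00017641; chromosome IV, 7957267 to 7962157, forward strand) had 156.51 and 150.42 FPKM in the mutant, against 162.39 and 157.87 FPKM in the control. The strains lie apart by less than the gap between the mutant libraries, with a log2 fold change of -0.06 (95% interval -0.34 to 0.21, limma adjusted p = 0.821). csr-1 makes a longer protein form known from spermatogenesis and a shorter one, but the files give 1 value per gene over 2 transcripts, so the forms were not separated.

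prg-1 (WBGene00004178; chromosome I, 7585329 to 7588367, reverse strand) had 88.98 and 89.48 FPKM in the mutant, against 78.59 and 94.49 FPKM in the control. The mutant libraries lie between the control libraries. The log2 fold change was 0.05 (95% interval -0.27 to 0.37, limma adjusted p = 0.881), and its sign turned after quantile normalization (-0.02) and without control replicate 1 (-0.08). prg-1 has a near copy, prg-2, listed by RefSeq as a pseudogene, which had 97.45 and 88.40 FPKM in the mutant and 117.00 and 116.83 FPKM in the control; how reads were divided between the copies is not known, so each value is uncertain. Together they had 186.43 and 177.88 FPKM in the mutant, against 195.59 and 211.32 FPKM in the control. Of 15 tested genes that make or trim piRNAs limma called none (2 at an unadjusted p under 0.05; median 0.03); erh-2, of a piRNA processing complex, had the largest, 0.49 (limma adjusted p = 0.0967).

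hrde-1 (WBGene00007624; chromosome III, 4172337 to 4176159, reverse strand), which carries silencing signals into germline nuclei, had the highest log2 fold change of the 10. It had 143.44 and 108.86 FPKM in the mutant, against 87.89 and 89.61 FPKM in the control. Both mutant libraries are above both control libraries, and mutant replicate 1 stands apart. The log2 fold change was 0.49 (SE 0.16, 95% interval 0.11 to 0.86), and it did not pass (limma adjusted p = 0.126). It passed without mutant replicate 2 (0.0447), with a range of 0.0447 to 0.385 over 11 alternatives. Of 6 nuclear RNAi genes limma called none (0 at an unadjusted p under 0.05; median 0.20); nrde-4, a nuclear silencing factor gene, had the largest log2 fold change, 0.26 (limma adjusted p = 0.396).

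wago-1 (WBGene00011061; chromosome I, 7235384 to 7238792, forward strand) had the highest level of the 10 in every library. It had 225.30 and 212.80 FPKM in the mutant, against 184.72 and 195.52 FPKM in the control. Both mutant libraries are above both control libraries, and the log2 fold change was 0.20 (95% interval -0.08 to 0.49, limma adjusted p = 0.394). Of the summed level of the 10 genes, wago-1 held 30.65% and 32.02% in the mutant and 28.7% and 28.9% in the control. Its relative wago-2, listed by RefSeq as a pseudogene, had 62.38 and 61.53 FPKM in the mutant and 46.31 and 56.02 FPKM in the control, and shared reads leave both uncertain. Of 16 genes of 22G-RNA amplification, among them the mutator genes, limma called none (2 at an unadjusted p under 0.05; median 0.09); rde-11, an RNAi factor gene, had the largest log2 fold change, 0.40 (limma adjusted p = 0.165).

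Germline markers such as the P granule helicase genes glh-1 and glh-2 were not called either. Of 18, limma called 0 in either direction and 3 had an unadjusted p under 0.05. Their log2 fold changes ran from -0.39 to 0.58, with a median of -0.01. The largest was that of nos-2, of the Nanos family (0.58, limma adjusted p = 0.0744). It passed as higher with the replicate number as a block (0.0312). The 18 markers summed to 1750 and 1685 FPKM in the mutant and to 1632 and 1637 FPKM in the control.

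**Figure D4:**
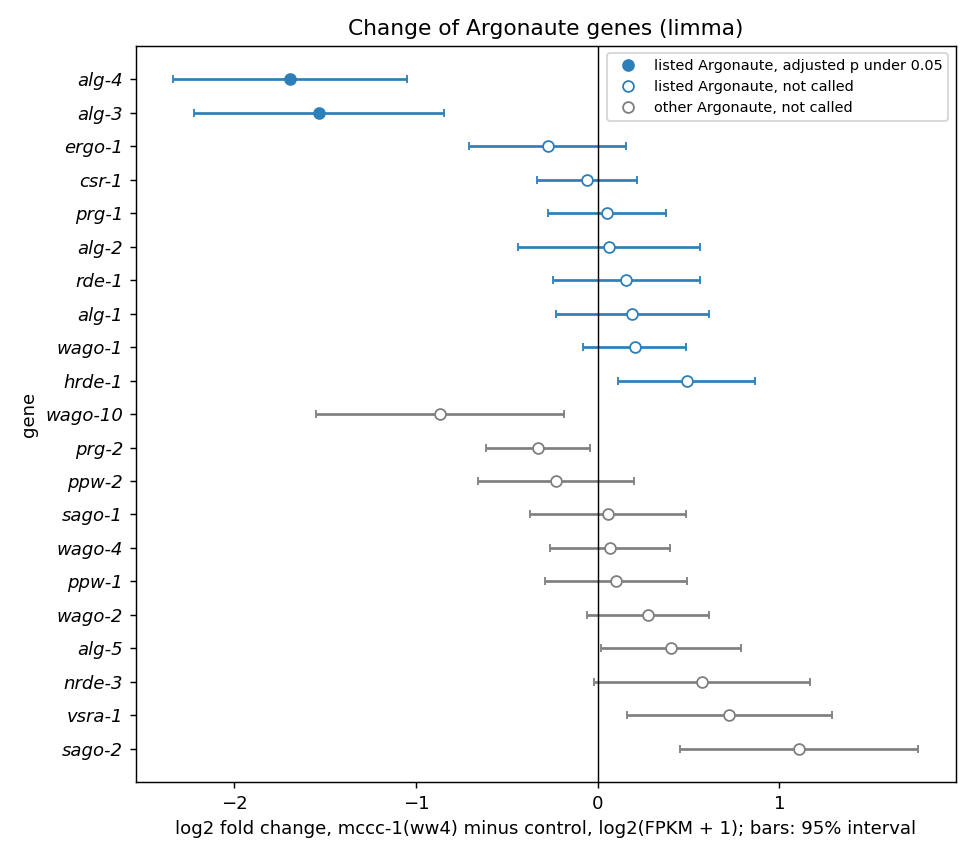
log2 fold change, mccc-1(ww4) minus control, on the log2(FPKM + 1) scale with its 95% interval from limma, for the 10 Argonaute genes (upper, blue) and 11 other tested Argonaute genes (lower, grey); filled points passed an adjusted p of 0.05. alg-4 (-1.69) and alg-3 (-1.53) are the filled points, and the other 19 genes are open.

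For 7 of the 10 genes the mutant libraries lay wholly to one side of the control libraries, against 52.1% of all tested genes. They were lower for alg-3, alg-4, csr-1 and ergo-1, 4 of 10 against 23.2% of all tested genes, and higher for alg-1, hrde-1 and wago-1, 3 of 10 against 28.9%.

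Of 13 other Argonaute genes, 11 were tested and limma called none (median log2 fold change 0.10). At an unadjusted p under 0.05 limma counted 5 of the 11, against 21.6% of all tested genes. sago-2, a secondary Argonaute gene, had the log2 fold change of largest size (1.11, SE 0.27, limma adjusted p = 0.0596). The sago-2 levels were 7.58 and 10.71 FPKM in the mutant and 4.40 and 3.01 FPKM in the control, 2.47-fold higher by the means. It passed as higher without control replicate 1, with a robust variance model (limma adjusted p = 0.0425) and with the replicate number as a block (0.0118). wago-10, named after its values were seen, was the other Argonaute gene with the most negative change. It had 0.48 and 0.71 FPKM in the mutant and 1.47 and 2.42 FPKM in the control. By the means wago-10 was 3.27-fold lower, at levels near the filter (log2 fold change -0.87, limma adjusted p = 0.132). It entered the test through the control libraries alone. Without it the median of the other Argonautes was 0.19. wago-5 and wago-11 lay below the filter, with 0.00 and 0.00 FPKM and 0.61 and 0.37 FPKM in the mutant, and 0.00 and 0.06 FPKM and 0.54 and 0.37 FPKM in the control.

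The genes whose levels over the 4 libraries were most like those of alg-3 and alg-4 were found by the distance between their log2 values after each gene's own mean was taken away. This is a description over 4 points. The closest to alg-3 were Y119C1B.1, Y106G6D.3 and C09H10.9, at distances of 0.0479, 0.0484 and 0.0619. Y106G6D.3, for example, had 8.06 and 13.07 FPKM in the mutant and 28.25 and 34.34 FPKM in the control. The closest to alg-4 were F54D1.1, F52F12.5 and C32E12.1, at 0.0491, 0.0564 and 0.0580. alg-4 itself was at a distance of 0.230 from alg-3, and 141 tested genes were closer to alg-3 than it was.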

How the data were processed

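Each file holds 1 library with FPKM values per gene and 2 decimals, per the file headers. The submitters' processing notes name Bowtie2 and RSEM, without versions; the build, annotation and strandedness behind the values are not given. RSEM divides the reads of similar genes by a model, which makes levels of close relatives uncertain. The deposited FPKM were joined by WormBase identifier, and 18776 of 20535 identifiers had a symbol in the name table; cde-1 and tofu-3 of the lists were not matched and are not analysed here. Positions come from the WBcel235 annotation.

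The test used limma 3.58.1 (R 4.3.3) on log2(FPKM + 1), mutant minus control, with strain as the one term, a trended empirical Bayes variance and a filter of 1 FPKM or more in 2 libraries or more, with Benjamini-Hochberg adjustment over all 13091 tested genes. The scale understates changes of low genes. With 2 libraries per strain, and cultures not described in the labels, p-values rest on the spread of the libraries, part of which may be technical. The fit was also run on simulated data, and no result given here rests on that run. The 10 members and the 11 gene lists were chosen with earlier results of these data known, and no list was tested as a set. By rule, named list genes are those called, at most 3 by size, or else the largest change. Other list genes, marked or not, were named outside this rule, among them rrf-3, glh-1, glh-2, prg-2 and wago-2.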

Additional observations from a re-analysis of the deposited data

How the results depend on the processing

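The count of called genes over all genes depended on the processing. It was 1095 (956 lower, 139 higher) and fell to 4 (1 lower, 3 higher) with no filter on low values. It was 726 after quantile normalization, of which 603 were lower. Leaving out 1 library gave 393 to 1324 genes in all, 356 to 1080 lower and 37 to 244 higher. With the replicate number as a block it was 1803, of which 1451 were lower and 352 higher. The labels do not say that the number marks a batch, and the replicate differences of the strains correlated at 0.176 over genes; under the block alg-3 and alg-4 kept their calls (limma adjusted p = 0.000452 and 0.000172). The block also called higher 2 other Argonaute genes, sago-2 (0.0118) among them, 4 oocyte markers against 2 without it, the germline marker nos-2 (0.0312) and the soma marker elt-2 (0.0303). Of the 10 Argonaute genes 0 were called lower with no filter and 1 after quantile normalization; leaving out 1 library gave 0 to 2 lower and 0 to 1 higher. With no filter the log2 fold changes of alg-3 and alg-4 were the same, -1.53 and -1.69, and their adjusted p missed the threshold. That setting tests 18934 genes. The unadjusted limma p also rose, from 0.00128 to 0.00646 for alg-3 and from 0.000501 to 0.00314 for alg-4. After quantile normalization alg-3 was at -1.35. Leaving out 1 library gave -1.86 to -1.21 for alg-3 and -1.92 to -1.46 for alg-4. The sign turned for prg-1 after quantile normalization (-0.017) and for prg-1 and alg-2 when 1 library was left out, where they ranged from -0.082 to 0.18 and from -0.17 to 0.30; neither was called. For the 10 genes, 99 of the values under alternatives kept both direction and side of the threshold. Of the rest, 7 lost a call, 1 gained a call and 3 changed direction. All 7 lost calls were of alg-3 or alg-4, the only members called in the main fit. The cause of these differences was not tested. Where a strain was left with 1 library, that library was assumed to vary like the other strain's. Low fragment numbers limit alg-3 in the mutant, where counting error alone is about 9.76% and 7.22%.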
